A study of Drosophila melanogaster with 18 samples.

Results

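In fat bodies of Drosophila melanogaster, 33 of 16438 genes were at least 8 times lower in white prepupae than in early wandering larvae of flies from the Netherlands (NL) and of flies from Zambia (ZI). They were chosen by their levels in CPM (a gene's count relative to the column total of its library, per 1e6): the mean over the 3 early libraries had to be at least 20 CPM, and the mean over the 3 prepupal libraries had to be at least 8 times below it, in each population. Of the 2653 genes that reached 20 CPM in early larvae of both populations, these 33 were 1.24%. The early and prepupal values thus chose the genes and are given as a description, whereas the late larval libraries took no part in the choice. All 33 genes are protein-coding, and all 33 passed the filter of 15 counts on average that was used for testing. None was absent from prepupae. Every one of the 33 had counts in all 18 libraries, the lowest being 8, and the most abundant, *Lsp1gamma*, still stood at 12285 ± 1079.6 CPM in NL and 12051 ± 969 CPM in ZI prepupae (SD, n = 3 each), so they are described here as strongly lowered rather than switched off.

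The libraries hold ribosome-depleted RNA from fat bodies dissected from females. Early and late wandering larvae of the third instar were told apart by the blue dye of their food in the gut, and white prepupae by the formed puparium. Each of the 6 combinations of population (the Netherlands, Zambia) and stage has 3 libraries, and every library is a pool of 3 fat bodies from each of 12 Dutch or 10 Zambian isofemale strains, which are lines founded by a single wild female. The 3 libraries of a group therefore share their strains, and the p-values measure the spread between such pools and not the variation among strains.

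The larval fat body is the organ of the insect that stores fat, glycogen and protein, and it carries out much of the amino acid, nucleotide and lipid metabolism that the vertebrate liver does. While the larva feeds, its fat body secretes large hexameric storage proteins, the larval serum proteins, into the hemolymph. When feeding ends and the steroid hormone ecdysone rises, the tissue stops making these proteins, takes them up again and lives on its stores through metamorphosis.

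Column totals ranged from 14998610 to 37250385 counts. The factors of TMM, a scaling that sets typical genes equal between libraries, averaged 0.792 in NL and 0.878 in ZI early, 1.17 in NL and 0.963 in ZI late, and 1.16 in NL and 1.12 in ZI prepupal libraries. For the median gene, a ratio of column-total CPM of early over prepupal is lower than the TMM ratio by 0.55 in NL and 0.35 in ZI on the log2 scale, and a column-total ratio of late NL over late ZI is higher by 0.28. The 10 fat body markers summed to between 328843 and 460779 CPM in every library, while 13 salivary gland markers summed to between 9.19 and 36.1 CPM and 37 gut markers to between 33.5 and 272 CPM. Of the fat body markers, 2 (*Lsp1alpha* and *Lsp1gamma*) belong to the 33 genes. The other 8 summed to 251226 to 261130 CPM in NL and 283341 to 294887 CPM in ZI early libraries. In prepupal libraries they summed to 307562 to 317947 CPM in NL and 345809 to 352793 CPM in ZI. Late libraries of one group stood apart for the 33 genes. Among late NL libraries, replicate 1 was the highest for 32 of the 33 genes and replicate 3 the lowest for 32, and among late ZI libraries replicate 2 was the highest for 31. In pooled tissue, fewer cells of a type and less RNA per cell cannot be told apart.

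As the rule fixed, the early mean was 8.04 to 40.2 times the prepupal mean in NL (median 11.6) and 8.01 to 41.7 times in ZI (median 11.9). Together the 33 genes took 18.4% to 20.2% of all counts in NL and 17.1% to 17.3% in ZI early libraries, 6.31% to 11.9% in NL and 4.62% to 6.84% in ZI late libraries, and 2.19% to 2.58% in NL and 1.84% to 2.03% in ZI prepupal libraries. Almost all of that was the pair of storage protein genes described below. The other 31 genes took 0.775% to 0.860% in NL and 0.621% to 0.731% in ZI early libraries and no more than 0.0770% in any prepupal library. For all 33 genes the early mean was the highest and the prepupal mean the lowest in both populations, and the 3 late libraries lay wholly between the early and the prepupal ones for 25 genes in NL and 31 in ZI (30 and 31 after TMM scaling). The rule had set the early and prepupal means of these genes at least 8-fold apart. How often late libraries of other genes lie between is not given here, so these counts are a description. The genes just inside the limit were *Lsp1alpha*, *CG6178* and *Lsp1gamma*, and those just outside were *Yp3* (a yolk protein gene), at 7.93-fold in NL and 9.05-fold in ZI, *CG4752*, at 7.65-fold in NL and 8.10-fold in ZI, and *Ldsdh1* (a dehydrogenase of lipid droplets), at 7.50-fold in NL and 8.42-fold in ZI. On TMM-scaled CPM the same limit would hold 65 genes, the 33 and 32 more, among them *Lsp1beta*, *Yp3* and *FASN1*.

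**Figure D1:**
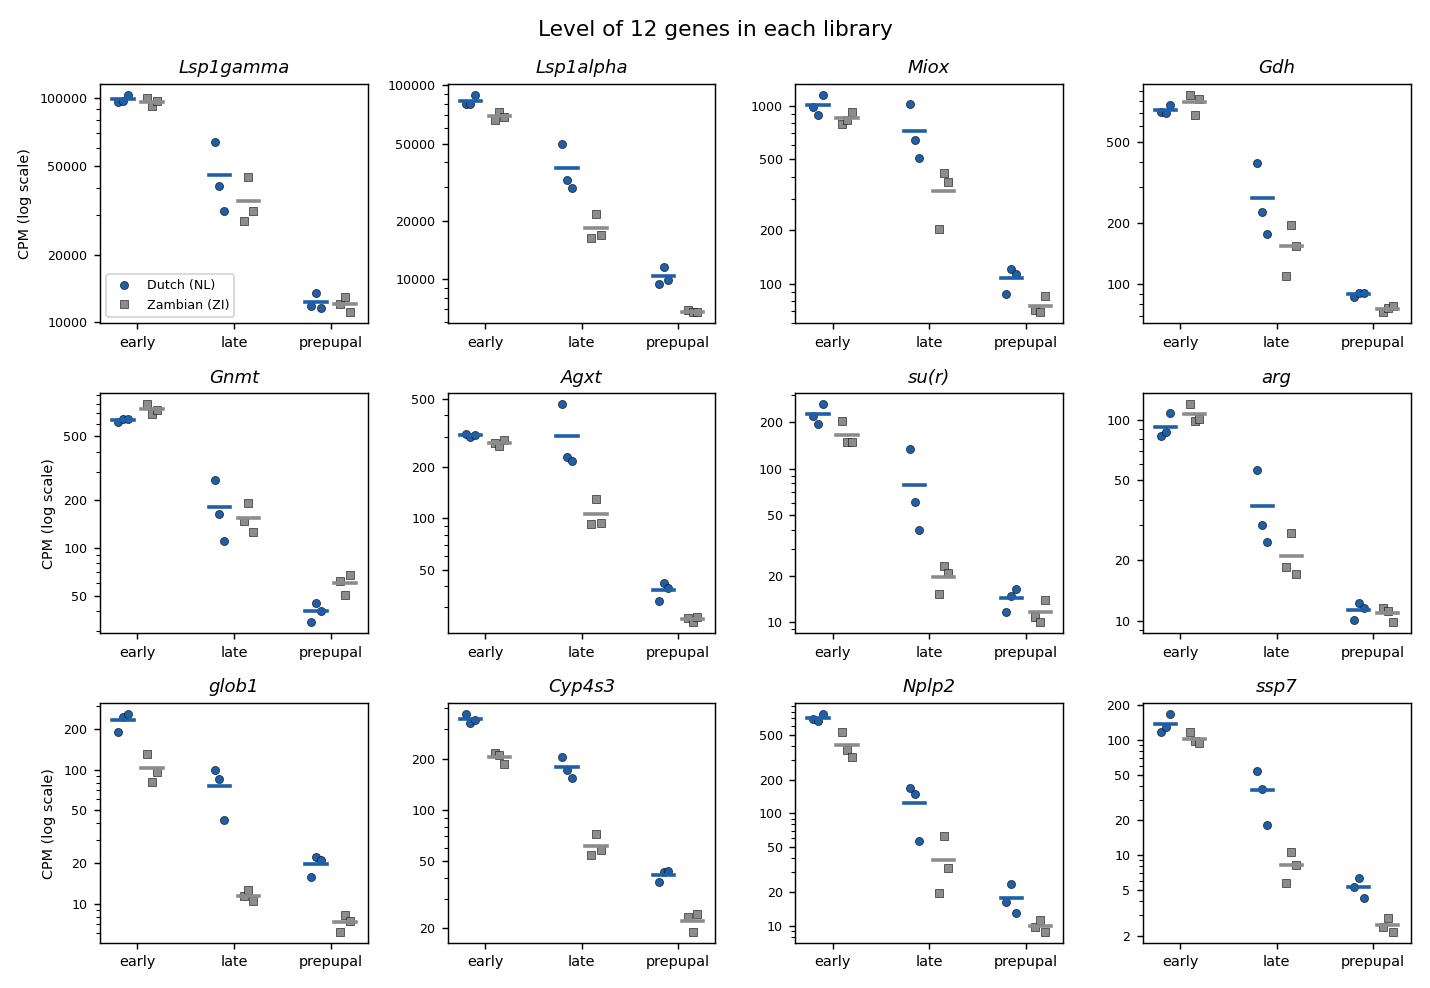
Level of 12 of the genes in each library, in CPM on a log axis that differs between panels, at the early, late and prepupal stage (x axis). Circles are Dutch and squares Zambian libraries, and the lines are means of 3 libraries. At the late stage the Zambian libraries of glob1 lie between 10.4 and 12.6 CPM, below all Dutch ones, which lie between 42.3 and 98.6 CPM.

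The late libraries, which took no part in the choice, were compared between the populations. At that stage 18 of the 33 genes were higher in NL and 0 were higher in ZI (edgeR quasi-likelihood test on TMM-normalised counts, Benjamini-Hochberg adjusted p under 0.05 over 12460 genes), against 13.7% of all tested genes called higher in NL and 14.1% called higher in ZI. The median log2 fold change, Dutch over Zambian, was 0.78 over the 33 genes and 0.04 over all genes tested. The fold change was positive for 31 of these 33, against 6505 of the 12460 genes tested. At an unadjusted p under 0.05 there were 21 genes, against 42.3% of all tested genes in either direction, and DESeq2 called 17 higher in NL and 0 higher in ZI. The 18 genes were *Lsp1alpha*, *Miox*, *Nplp2*, *Aldh*, *Agxt*, *Cyp4s3*, *alpha-Est2*, *su(r)*, *glob1*, *ssp7*, *smp-30*, *Sodh2*, *CG6330*, *CG31743*, *SP1173*, *Ugt35A1*, *CG43153* and *Lcp65Ab2*. All 3 NL libraries lay above all 3 ZI libraries by CPM for 17 of the 33 genes, against 28.3% of all tested genes, and after TMM scaling for 8, against 19.3%. The reverse, all ZI above all NL libraries, held by CPM for 0 of the 33, against 6.16% of all tested genes. After TMM scaling it held for 0 of the 33, against 2568 of the 12460 genes tested. Among the other 2620 genes with at least 20 early CPM, 4.77% were called higher in NL and 29.9% higher in ZI, and among the 368 of them that were at 50% or less of their early mean in prepupae of both populations, 14.4% were called higher in NL and 3.26% higher in ZI. No test of the 33 genes against these other genes was made. The count of 18 was 10 without late ZI replicate 3, 14 without late NL replicate 1, 23 without late NL replicate 3, and 7 when the 6 late libraries were fitted alone, and 0 genes were called higher in ZI in any of these fits. For the alternative fits, here and below, the share of all tested genes called is not given. Their counts therefore show only how far the count of members depended on the fit. The 7 genes *CG6330*, *Cyp4s3*, *alpha-Est2*, *glob1*, *smp-30*, *ssp7* and *su(r)* were called under all 24 alternative settings.

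**Figure D2:**
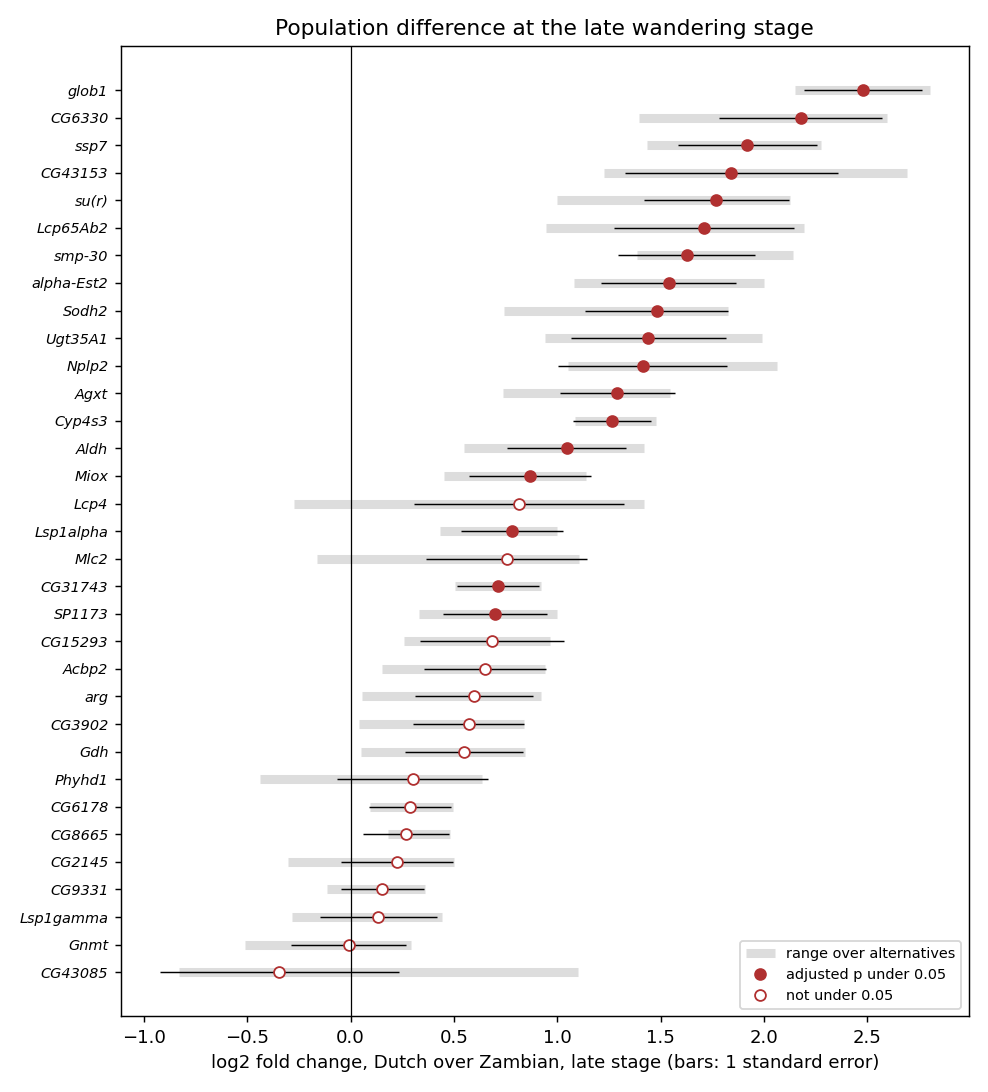
Difference between the populations at the late stage for each of the 33 genes (rows), as log2 fold change, Dutch over Zambian (x axis). Points are the edgeR estimates, filled where the adjusted p is under 0.05, black bars are 1 standard error, and grey bars give the range over the alternative settings. The 18 filled points lie between 0.70 and 2.48.

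The level left at the late stage, as a percent of the early mean, had a median of 39.1% in NL (17.7% to 99.1%) and 20.9% in ZI (6.87% to 61.9%) over the 33 genes. For the 2653 genes with at least 20 early CPM the median was 117% in NL and 111% in ZI. A late mean at 50% or less of the early mean was seen for 23 of the 33 genes in NL and 32 in ZI, against 5.77% and 10.7% of those 2653 genes, and a late mean at 12.5% or less for 0 in NL and 6 in ZI. By the late stage the 33 genes had gone through a median of 38.4% of their log2 decline in NL and 58.6% in ZI, and the share was larger in ZI for 32 of 33. The early libraries that chose the genes are the base of these percentages, which are therefore given with no test. TMM scaling left the late level lower in ZI than in NL for 27 of 33 genes in place of 32, with medians of 27.6% in NL and 19.3% in ZI. With that scaling the share of the log2 decline was larger in ZI for 31 of 33. Compared with TMM, column totals raised the ratio of late over early by 0.57 in NL and 0.14 in ZI on the log2 scale. How often other genes show these directions, or a late mean at 12.5% or less, is not given here. The late libraries also differed within each population. The median share of the log2 decline was 24.2%, 42.2% and 56.9% in late NL replicates 1, 2 and 3, and 67.8%, 48.9% and 67.9% in late ZI replicates 1, 2 and 3, so that late NL replicate 3 had gone further than late ZI replicate 2. Without late NL replicate 1 the NL median was 48.5%, and without late ZI replicate 2 the ZI median was 65.6%.

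**Figure D3:**
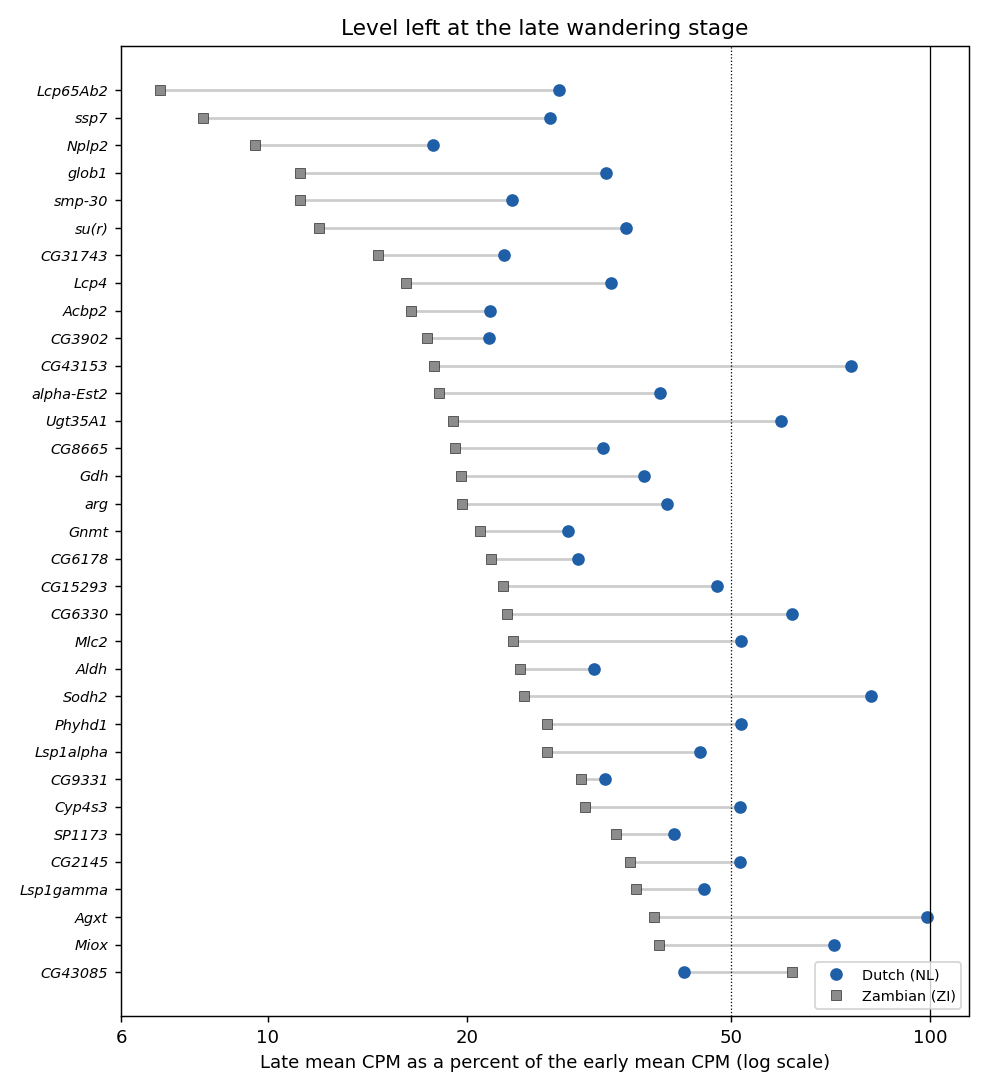
Level left at the late stage for each of the 33 genes (rows), as the late mean CPM in percent of the early mean CPM on a log axis. Circles are the Dutch and squares the Zambian population (means of 3 libraries), the dotted line marks 50% and the solid line 100%. CG43085 is the gene whose Zambian value lies to the right of its Dutch value, and Agxt reaches 99.1% in the Dutch population.

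The difference between populations in the early-to-late change was tested as an interaction, which was called for 0 of the 33 genes, against 7.87% of all tested genes. The early libraries in this contrast also took part in choosing the genes, so its counts are given as a description. The interaction was positive for 27 of the 33 genes, against 5973 of the 12460 tested and 126 of those 368. Its median was 0.53 on the log2 scale over the 33 genes, -0.04 over all genes tested and -0.14 over the 368. At an unadjusted p under 0.05 there were 8 of the 33, against 34.3% of all tested genes and 44 of the 368. The 8 were *glob1*, *ssp7*, *Sodh2*, *Lcp65Ab2*, *su(r)*, *CG43153*, *Agxt* and *Ugt35A1*, with edgeR adjusted p of 0.0597 for *glob1* and 0.103 for *Ugt35A1*. DESeq2 called 1 (*glob1*), upper-quartile scaling 3, and edgeR 3 without early NL replicate 3 and 6 without late NL replicate 3. The late levels themselves were called different for 18. In early larvae the fold change, Dutch over Zambian, was already positive for 27 of the 33 genes, against 6627 of the 12460 tested. It was also positive for 1947 of the other 2620 genes with at least 20 early CPM, and for 288 of the 368 among them. Its early median was 0.39 on the log2 scale over the 33 genes and 0.03 over all genes tested. Over the 2620 and the 368 genes it was 0.13 and 0.18. A difference in late level is therefore not by itself a difference in how far the decline had gone.

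How many genes differed in early larvae and in prepupae depended on the fit. The libraries of these stages also chose the genes, so the counts and calls there are given as a description. In early larvae 3 genes (9.09%) were called higher in NL and 0 higher in ZI, against 4.53% and 3.00% of all tested genes. Among the 368 other genes introduced above, which were also lowered in prepupae, 11.7% were called higher in NL and 1.09% higher in ZI. In prepupae 2 genes (6.06%) were called higher in NL and 0 higher in ZI, against 2.66% and 2.09% of all tested genes. Among the 368 these shares were 7.07% and 2.45%. The share called higher in NL was thus lower in the 33 genes than in the 368 at both stages. At an unadjusted p under 0.05 there were 12 of the 33 genes in early larvae and 10 in prepupae, against 20.4% and 14.0% of all tested genes. Of the 368 genes there were 102 and 86. By CPM, all NL libraries lay above all ZI ones for 13 of the 33 genes in early larvae and 17 in prepupae, against 9.03% and 15.6% of all tested genes, and all ZI libraries above all NL ones for 2 (*Gnmt*, *Phyhd1*) and 2 (*Gnmt*, *CG8665*), against 19.9% and 9.11%. After TMM scaling, all NL libraries lay above all ZI ones for 18 of the 33 genes in early larvae and 14 in prepupae, against 14.9% and 9.33% of all tested genes. All ZI libraries then lay above all NL ones for 0 and 2 of the 33, against 1405 and 1267 of the 12460 genes tested. *glob1* and *Cyp4s3* were called at all 3 stages and *Aldh* in early and late larvae, while 15 genes were called at the late stage only. The early count was 12 without late NL replicate 1, 6 without late NL replicate 3 and 5 without late ZI replicate 1 or 2, in fits where all libraries share an estimate of the spread, and it was 15 when the 6 early libraries were fitted alone. The prepupal count was 7 without late NL replicate 1, with *Gnmt* then called higher in ZI, 1 (*glob1*) without replicate 2 of either prepupal group, and 13 when the 6 prepupal libraries were fitted alone, where *CG8665* and *Gnmt* were called higher in ZI.

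*Lsp1alpha* and *Lsp1gamma* encode subunits of larval serum protein 1, the major storage hexamer of the larval hemolymph. *Lsp1gamma* (FBgn0002564, chromosome arm 3L, 66430 to 68995, plus strand of the Release 6 genome) had 96625, 97359 and 104126 CPM in NL and 100168, 92312 and 96987 CPM in ZI libraries at the early stage. It had 63786, 40744 and 31346 CPM in NL and 28235, 44737 and 31303 CPM in ZI libraries at the late stage and 11804, 13522 and 11529.8 CPM in NL and 12049, 13020.4 and 11082 CPM in ZI libraries in prepupae. By column-total CPM the populations overlapped at every stage, after TMM scaling all early NL libraries lay above the early ZI ones, and the late difference was not called (log2 fold change 0.14 ± 0.28 (SE), edgeR adjusted p = 0.725). *Lsp1alpha* (FBgn0002562, chromosome arm X, 12490291 to 12492982, plus strand) had 79819.9, 79644 and 89492 CPM in NL and 65999, 72564 and 68905 CPM in ZI libraries in early larvae. At the late stage it had 49885, 32596 and 29419 CPM in NL and 16200.0, 21625 and 16949 CPM in ZI libraries, and the difference was called (log2 fold change 0.78 ± 0.25 (SE), edgeR adjusted p = 0.0249). The NL libraries all lay above the ZI ones on column totals and overlapped with them after TMM scaling. The call was made under 19 of 24 alternatives, with a highest adjusted p of 0.125 with the late libraries alone, and it was also lost with no filter on low counts (adjusted p of 0.0543) and without late NL replicate 1, late ZI replicate 1 or late ZI replicate 3 (adjusted p of 0.0599, 0.0735 and 0.0836). In prepupae it had 9477, 11536 and 9935 CPM in NL and 6906, 6765 and 6739.6 CPM in ZI libraries. Per length, the early level was 57565 TPM (a share of transcripts, scaled for length) in NL and 58480.3 TPM in ZI for *Lsp1gamma*, and 45807 TPM in NL and 39918 TPM in ZI for *Lsp1alpha*.

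The remaining subunit gene, *Lsp1beta*, missed the limit, with 90322 ± 818 CPM in NL and 104430.0 ± 5233 CPM in ZI early larvae and 14847 ± 1544 CPM in NL and 14634 ± 329 CPM in ZI prepupae (SD, n = 3 each), which left 16.4% in NL and 14.0% in ZI. *Lsp2*, the gene of the other larval storage hexamer, was at 69.7% of its early CPM in NL and 56.9% in ZI prepupae. *Fbp1*, which encodes the receptor through which the fat body takes storage protein back up, was at 423% in NL and 349% in ZI. Of the 16 other tested genes in the list of storage proteins and fat body products, 9 were called lower and 4 higher in prepupae than in early larvae of both populations (edgeR), against 20.7% and 14.0% of all tested genes.

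**Figure D4:**
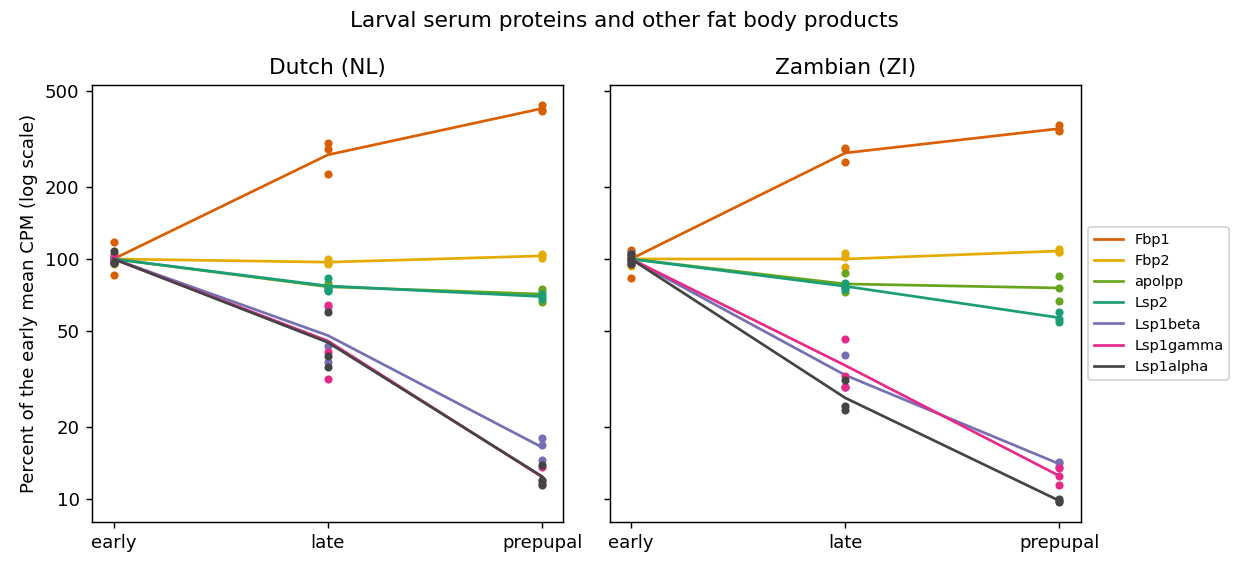
Level of storage protein genes and other fat body products by stage, as CPM in percent of the early mean on a log axis, for Dutch (left) and Zambian (right) libraries. Points are libraries and lines join the means of 3. Lsp1alpha, Lsp1beta and Lsp1gamma end at 9.84% to 16.4% and Fbp1 at 423% for Dutch and 349% for Zambian libraries.

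Several of the genes encode enzymes of amino acid breakdown and of the glyoxylate and one-carbon steps linked to it. *Gdh* encodes glutamate dehydrogenase, which releases ammonia from glutamate. It had 705, 698 and 765 CPM in NL and 859.9, 683 and 816 CPM in ZI libraries in early larvae, 267 CPM in NL and 154 CPM in ZI on average at the late stage, and 87.1, 91.1 and 90.7 CPM in NL and 72.9, 76.2 and 78.4 CPM in ZI libraries in prepupae. *Agxt* encodes alanine-glyoxylate aminotransferase, which turns glyoxylate into glycine. Its early level was 311, 297 and 308 CPM in NL and 274, 265 and 289 CPM in ZI libraries, and its late level 464, 229 and 215 CPM in NL and 93.04, 129.9 and 94.3 CPM in ZI libraries. In the late NL libraries it thus kept 99.1% of its early mean, the most of the 33 genes, against 38.4% in the ZI libraries (after TMM scaling 70.7% in NL and 35.4% in ZI), and the late difference was called (log2 fold change 1.29 ± 0.28 (SE), edgeR adjusted p = 0.00275). The fit of the 6 late libraries alone was the setting of 24 that lost it (adjusted p of 0.0529). In prepupae *Agxt* had 32.9, 41.5 and 38.9 CPM in NL and 26.1, 24.6 and 26.3 CPM in ZI libraries. *CG9331*, annotated as a glyoxylate and hydroxypyruvate reductase, was lower in prepupae by 9.59-fold in NL and 9.92-fold in ZI, and its late difference was not called (log2 fold change 0.15 ± 0.20 (SE), edgeR adjusted p = 0.566).

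*Gnmt* encodes glycine N-methyltransferase, which uses up S-adenosylmethionine and makes sarcosine. It had 615, 639.5 and 645 CPM in NL and 792, 688 and 734 CPM in ZI libraries in early larvae, 266, 162 and 110.4 CPM in NL and 147, 190.1 and 126 CPM in ZI libraries at the late stage and 34.2, 45.2 and 40.1 CPM in NL and 62.3, 50.6 and 67.1 CPM in ZI libraries in prepupae. By column-total CPM the ZI libraries lay above the NL ones in early larvae and in prepupae, but after TMM scaling the early libraries overlapped, and neither difference was called. The late libraries overlapped (log2 fold change -0.01 ± 0.28 (SE), edgeR adjusted p = 0.984). *CG8665*, which encodes 10-formyltetrahydrofolate dehydrogenase, an enzyme that burns one-carbon units off folate, had 259, 354 and 213 CPM in NL and 272, 329.7 and 349 CPM in ZI libraries in early larvae and 19.9, 22.5 and 28.6 CPM in NL and 33.0, 29.7 and 30.5 CPM in ZI libraries in prepupae. *arg* encodes arginase, which splits arginine into ornithine and urea. Its early level was 82.8, 87.0 and 107 CPM in NL and 119, 98.0 and 101 CPM in ZI libraries and its prepupal level 10.0, 12.2 and 11.6 CPM in NL and 11.6, 11.2 and 9.82 CPM in ZI libraries, with overlapping populations at both stages. *CG3902*, an acyl-CoA dehydrogenase of the branched-chain amino acid route, had 267, 295 and 296 CPM in NL and 204, 203 and 205 CPM in ZI libraries in early larvae, and the late means were 61.7 ± 27.7 CPM in NL and 35.5 ± 7.47 CPM in ZI (SD, n = 3 each).

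The lowering did not run through the whole list named amino acid breakdown. Besides *Gdh*, *Gnmt*, *Agxt* and *su(r)*, 21 genes of that list were tested, of which 5 were called lower and 6 higher in prepupae than in early larvae of both populations, against 20.7% and 14.0% of all tested genes. Those lower were *Hn*, *Got1*, *Got2*, *Sardh* and *pyd3*, and those higher *Oat*, *slgA*, *Nmdmc*, *CRMP*, *b* and *Ddc*. The list is wider than its name, with *su(r)*, *CRMP* and *pyd3* of pyrimidine breakdown and *Nmdmc* of folate metabolism in it. The counts are therefore not counts of amino acid breakdown alone. Next to *Gnmt* in its route, *Sardh*, whose enzyme takes up sarcosine, was at 32.1% of its early CPM in NL and 18.5% in ZI prepupae and was among the 5 called lower. *Nmdmc*, which encodes a mitochondrial enzyme of folate one-carbon metabolism, rose instead. It reached 2709% of its early column-total CPM in NL and 1089% in ZI. The TMM-normalised log2 fold change, prepupal over early, was 4.21 ± 0.21 (SE) in NL and 3.08 ± 0.20 in ZI (edgeR). These neighbours in the routes were chosen after their values were seen.

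*su(r)* encodes dihydropyrimidine dehydrogenase, the enzyme of the first step in the breakdown of uracil and thymine. It had 218, 195 and 261 CPM in NL and 202, 148 and 148 CPM in ZI libraries in early larvae. At the late stage it had 134, 60.3 and 39.9 CPM in NL and 15.3, 23.2 and 21.1 CPM in ZI libraries, all NL libraries being above all ZI ones (log2 fold change 1.77 ± 0.35 (SE), edgeR adjusted p = 0.00145). In prepupae it had 11.7, 14.9 and 16.5 CPM in NL and 10.8, 10.0 and 14.1 CPM in ZI libraries. *CG6330* is annotated as a uridine phosphorylase, which frees uracil from uridine. Its levels were 83.2, 90.5 and 97.0 CPM in NL and 39.6, 36.3 and 64.4 CPM in ZI libraries in early larvae, 96.5, 42.4 and 28.6 CPM in NL and 10.2, 15.04 and 6.97 CPM in ZI libraries at the late stage and 5.93, 7.20 and 8.26 CPM in NL and 4.03, 4.26 and 4.33 CPM in ZI libraries in prepupae. The late difference was the second in size of the 33 (log2 fold change 2.18 ± 0.39 (SE), edgeR adjusted p = 7.11e-04). On column totals late NL replicate 1 lay within the range of the early NL libraries, and after TMM scaling below it, and without that library the log2 fold change was 1.40, still called.

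The genes of the next steps after *su(r)* differed in direction. *CRMP*, whose gene encodes dihydropyrimidinase as well as a neuronal protein, rose to 1541% of its early column-total CPM in NL and 1179% in ZI prepupae. Its TMM-normalised log2 fold change, prepupal over early, was 3.40 ± 0.18 (SE) in NL and 3.21 ± 0.18 in ZI (edgeR). *pyd3*, which encodes the enzyme of the last step, was at 86.9% by column totals in NL and 63.2% in ZI. It was called lower on TMM-normalised counts (log2 fold change -0.75 ± 0.15 (SE) in NL and -1.01 ± 0.15 in ZI, edgeR adjusted p = 2.86e-04 in NL and 1.13e-05 in ZI). Like the neighbours of *Gnmt*, both were named after their values were seen. *Miox* encodes myo-inositol oxygenase, the entry to inositol breakdown, and lies at chromosome arm 3L, 12184984 to 12187860, plus strand. It had 988, 889.7 and 1158 CPM in NL and 792, 832 and 928 CPM in ZI libraries in early larvae and 1022, 641 and 510.1 CPM in NL and 204, 419 and 373 CPM in ZI libraries at the late stage. On column totals late NL replicate 1 was within the range of the early NL libraries. After TMM scaling it had 1036 CPM, below the 1200.1 to 1352 CPM of the early *Miox* values. The late difference was called (log2 fold change 0.87 ± 0.29 (SE), edgeR adjusted p = 0.0352) but was lost under 5 of 24 alternatives, the fit of the late libraries alone, DESeq2 and the fits without late NL replicate 1, late ZI replicate 1 or late ZI replicate 3 (the last 3 with adjusted p of 0.142, 0.11 and 0.0623). In prepupae *Miox* had 87.9, 121 and 113 CPM in NL and 70.9, 69.0 and 85.3 CPM in ZI libraries.

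A group of genes encodes enzymes of the kind that clear foreign or waste compounds. *Cyp4s3*, a cytochrome P450 gene (chromosome arm X, 15113302 to 15116542, minus strand), was higher in NL at each stage. It had 369, 327 and 342 CPM in NL and 216, 211 and 188 CPM in ZI libraries in early larvae (log2 fold change 0.91 ± 0.19 (SE), edgeR adjusted p = 0.00300). It had 207, 174 and 156 CPM in NL and 54.3, 72.3 and 58.5 CPM in ZI libraries at the late stage (log2 fold change 1.27 ± 0.19 (SE), edgeR adjusted p = 1.14e-04). It had 37.7, 43.1 and 43.7 CPM in NL and 23.2, 19.1 and 24.5 CPM in ZI libraries in prepupae (log2 fold change 0.85 ± 0.19 (SE), edgeR adjusted p = 0.00989), a call that was lost without replicate 2 of the NL or of the ZI prepupal libraries (adjusted p of 0.0574 and 0.0762). The NL and ZI libraries did not overlap at any stage. *alpha-Est2*, a carboxylesterase gene, had 238, 301 and 261 CPM in NL and 189.6, 147 and 164 CPM in ZI libraries in early larvae and 151, 90.2 and 71.6 CPM in NL and 22.4, 43.9 and 24.2 CPM in ZI libraries at the late stage, again without overlap (log2 fold change 1.54 ± 0.33 (SE), edgeR adjusted p = 0.00258). *Ugt35A1*, a UDP-glycosyltransferase gene, was near equal in early larvae, with 34.5, 49.5 and 53.8 CPM in NL and 47.5, 39.7 and 45.7 CPM in ZI libraries. Late libraries of *Ugt35A1* held 41.0, 25.0 and 16.2 CPM in NL and 3.96, 13.2 and 8.16 CPM in ZI libraries (log2 fold change 1.44 ± 0.38 (SE), edgeR adjusted p = 0.00951), a call lost with the late libraries alone (adjusted p of 0.0819).

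*Aldh* encodes an aldehyde dehydrogenase. It had 762, 676 and 697 CPM in NL and 426, 353 and 349 CPM in ZI libraries in early larvae, where all NL libraries lay above all ZI ones (log2 fold change 1.07 ± 0.29 (SE), edgeR adjusted p = 0.0230), a call lost without early NL replicate 1 or early ZI replicate 1 or 2 (adjusted p of 0.0547, 0.0508 and 0.0724). Late libraries of *Aldh* held 328, 185 and 149.7 CPM in NL and 70.4, 123 and 78.2 CPM in ZI libraries (log2 fold change 1.05 ± 0.29 (SE), edgeR adjusted p = 0.0128), a call lost without late ZI replicate 3 (adjusted p of 0.0570) and with the late libraries alone (adjusted p of 0.0909). In prepupae it had 47.7, 57.3 and 55.8 CPM in NL and 32.1, 32.4 and 30.9 CPM in ZI libraries. The gene families around them were counted as well. Of the 82 other cytochrome P450 genes tested, 34 were called lower and 5 higher in prepupae than in early larvae of both populations, and of the 14 other carboxylesterases 7 were called lower and 1 higher. Of the 33 other UDP-glycosyltransferases 5 were called lower and 2 higher. These counts stand against 20.7% and 14.0% of all tested genes.

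Some of the genes are linked to fatty acids. *CG6178*, which encodes an acyl-CoA synthetase related to firefly luciferase, had 124, 149.8 and 159 CPM in NL and 158, 122 and 121 CPM in ZI libraries in early larvae and 16.6, 19.9 and 16.5 CPM in NL and 15.7, 17.8 and 16.6 CPM in ZI libraries in prepupae, with late means of 42.5 ± 7.70 CPM in NL and 29.0 ± 4.11 CPM in ZI (SD, n = 3 each). *Acbp2*, an acyl-CoA binding protein gene, was lower in prepupae by 12.9-fold in NL and 10.5-fold in ZI. *Phyhd1*, whose protein has a phytanoyl-CoA dioxygenase domain, was lower by 11.5-fold in NL and 13.3-fold in ZI. None of the 3 was called between the populations at any stage. In the list of fatty acid oxidation, which holds *CG3902*, 9 of the 16 other tested genes were called lower and 0 higher in prepupae than in early larvae of both populations (edgeR), against the same 20.7% and 14.0%.

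*glob1* encodes a globin, an oxygen-binding protein of fat body and tracheae, and lies at chromosome arm 3R, 15896926 to 15904643, minus strand. In early larvae it had 190.2, 248 and 259 CPM in NL and 131, 80.4 and 95.7 CPM in ZI libraries, without overlap (log2 fold change 1.33 ± 0.27 (SE), edgeR adjusted p = 0.00245). At the late stage it had 98.6, 84.9 and 42.3 CPM in NL and 11.4, 12.6 and 10.4 CPM in ZI libraries, the largest late difference of the 33 genes (log2 fold change 2.48 ± 0.28 (SE), edgeR adjusted p = 6.20e-06). In the ZI libraries it was then at 11.2% of its early mean, against 32.4% in the NL libraries. In prepupae it had 15.8, 22.2 and 21.1 CPM in NL and 6.15, 8.19 and 7.42 CPM in ZI libraries (log2 fold change 1.40 ± 0.29 (SE), edgeR adjusted p = 0.00416), so the NL libraries lay above the ZI libraries at every stage. All 3 calls were made under all 24 alternative settings, with adjusted p at the late stage of 5.02e-17 to 0.00649.

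*smp-30* encodes the fly relative of regucalcin, a calcium-binding protein of the vertebrate liver. It had 104, 159.6 and 156 CPM in NL and 103, 62.9 and 68.7 CPM in ZI libraries in early larvae and 38.8, 41.6 and 17.6 CPM in NL and 6.46, 13.2 and 6.58 CPM in ZI libraries at the late stage, where it was called higher in NL (log2 fold change 1.63 ± 0.33 (SE), edgeR adjusted p = 0.00181). The late libraries of *smp-30* were apart on column totals and overlapped after TMM scaling. *Sodh2* encodes a sorbitol dehydrogenase, which turns sorbitol into fructose. Its early levels overlapped, with 64.3, 72.6 and 90.0 CPM in NL and 78.9, 77.1 and 79.1 CPM in ZI libraries. Late libraries of *Sodh2* held 105, 46.9 and 33.5 CPM in NL and 16.1, 25.4 and 15.8 CPM in ZI libraries. Late NL replicate 1 exceeded all early NL libraries, and after TMM scaling it did so by little (106 CPM against at most 105 CPM). The late ZI libraries were at 24.4% of the early mean (log2 fold change 1.48 ± 0.35 (SE), edgeR adjusted p = 0.00480), and the call was lost with the late libraries alone (adjusted p of 0.0660). In prepupae the means were 7.89 CPM in NL and 4.08 CPM in ZI for *smp-30* and 6.51 CPM in NL and 6.66 CPM in ZI for *Sodh2*. The prepupal libraries did not overlap for *smp-30* and did for *Sodh2*, and neither gene was called there.

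The ratio of early over prepupal was highest for *Nplp2* in NL and for *ssp7* in ZI. *Nplp2* encodes a neuropeptide-like precursor, and its listed length is 610 bases. It had 694, 661 and 762 CPM in NL and 525, 368 and 317 CPM in ZI libraries in early larvae, 168, 149.5 and 57.4 CPM in NL and 19.5, 63.5 and 32.8 CPM in ZI libraries at the late stage and 16.3, 23.4 and 13.0 CPM in NL and 9.87, 11.2 and 8.85 CPM in ZI libraries in prepupae, a difference of 40.2-fold in NL and 40.4-fold in ZI. The late difference was called (log2 fold change 1.41 ± 0.41 (SE), edgeR adjusted p = 0.0162) with overlapping libraries, and was lost without late ZI replicate 3 (adjusted p of 0.0668) and with the late libraries alone (adjusted p of 0.0942). *ssp7*, with a listed length of 368 bases, had 116, 129 and 168 CPM in NL and 117, 97.4 and 94.2 CPM in ZI libraries in early larvae. Late libraries of *ssp7* held 54.2, 37.6 and 18.5 CPM in NL and 5.74, 10.7 and 8.19 CPM in ZI libraries, without overlap (log2 fold change 1.92 ± 0.34 (SE), edgeR adjusted p = 5.32e-04). In prepupae it had 5.31, 6.33 and 4.26 CPM in NL and 2.40, 2.86 and 2.15 CPM in ZI libraries, a difference of 25.99-fold in NL and 41.7-fold in ZI.

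A few of the genes are known from other tissues. *Lcp4* and *Lcp65Ab2* encode proteins of the larval cuticle, which the epidermis secretes. *Lcp4* had 30.8, 40.5 and 36.9 CPM in NL and 34.2, 33.5 and 42.7 CPM in ZI libraries in early larvae, 23.4, 7.82 and 4.49 CPM in NL and 4.37, 9.51 and 3.94 CPM in ZI libraries at the late stage and 1.25, 1.60 and 1.36 CPM in NL and 3.72, 0.841 and 1.56 CPM in ZI libraries in prepupae, and it was not called between populations at any stage. *Lcp65Ab2* had 18.4, 22.7 and 24.4 CPM in NL and 21.4, 20.8 and 28.6 CPM in ZI libraries in early larvae and 10.4, 4.74 and 2.92 CPM in NL and 1.62, 2.41 and 0.833 CPM in ZI libraries at the late stage, where it was called higher in NL (log2 fold change 1.71 ± 0.44 (SE), edgeR adjusted p = 0.00832) except without late ZI replicate 3 (adjusted p of 0.0503) and with the late libraries alone (adjusted p of 0.0753). It has a close copy, *Lcp65Ab1*, with which it may share reads, and in prepupae its lowest counts were 10 in NL and 9 in ZI. The 20 cuticle and epidermis markers together, *Lcp4* included, summed to 69.2 to 86.9 CPM in NL and 87.1 to 104 CPM in ZI early libraries, 30.1 to 58.3 CPM in NL and 19.7 to 24.5 CPM in ZI late libraries, and 17.0 to 27.0 CPM in NL and 20.4 to 28.2 CPM in ZI prepupal libraries. None of the 20 was at 0 throughout a group, the 19 without *Lcp4* summed to 25.6 to 34.9 CPM in NL and 14.98 to 19.9 CPM in ZI late libraries, and the part of these markers in the result was not tested. Of the 85 other cuticle protein genes tested, 10 were called lower and 2 higher in prepupae than in early larvae of both populations, against 20.7% and 14.0% of all tested genes.

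*Mlc2* encodes a regulatory light chain of muscle myosin. It had 41.4, 43.7 and 34.3 CPM in NL and 51.3, 39.0 and 46.3 CPM in ZI libraries in early larvae, 38.0, 13.1 and 10.9 CPM in NL and 8.24, 13.6 and 10.2 CPM in ZI libraries at the late stage and 3.56, 3.73 and 4.55 CPM in NL and 5.04, 3.65 and 2.81 CPM in ZI libraries in prepupae. The populations overlapped at each stage (log2 fold change 0.75 ± 0.39 (SE), edgeR adjusted p = 0.145 at the late stage). The 11 other muscle markers, none of which was at 0 throughout a group, summed to 348 to 394 CPM in NL and 297 to 309 CPM in ZI early libraries. They summed to 356 to 380 CPM in NL and 140 to 185 CPM in ZI late libraries, and to 237 to 339 CPM in NL and 144 to 168 CPM in ZI prepupal libraries. These sums were higher in NL at each stage without overlap, also at the late stage where 18 of the 33 genes were called higher in NL, and their part in that result was not tested. The 8 oenocyte markers, most of whose sum is *Desat1*, a desaturase gene that the fat body also uses, summed to 1017 to 1124 CPM in NL and 602 to 850 CPM in ZI early, 356 to 431 CPM in NL and 243 to 303 CPM in ZI late, and 293 to 368 CPM in NL and 322 to 345 CPM in ZI prepupal libraries. The fall of this sum was that of *Desat1*, while *FASN2* and *FarO* rose or overlapped between early and prepupal libraries. *sala* rose, from 10.0 to 12.3 CPM in NL early to 31.1 to 32.7 CPM in NL prepupal libraries, and likewise in ZI. Other marker sums rose too. The 12 neuron and glia markers went from 269 to 283 CPM in NL and 317 to 335 CPM in ZI early libraries to 524 to 574 CPM and 708 to 741 CPM in prepupal ones. Malpighian tubule and imaginal disc sums also rose. The part of all these was not tested.

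For *CG2145*, *CG43085*, *CG15293*, *CG31743*, *SP1173* and *CG43153* no role is given here. *CG43085* was the gene whose late mean was higher in ZI, through a single library. It had 309.8, 396 and 438 CPM in NL and 370.3, 164 and 379 CPM in ZI libraries in early larvae and 203, 173 and 109 CPM in NL and 446, 85.2 and 33.9 CPM in ZI libraries at the late stage, where late ZI replicate 1 exceeded every early ZI library on column totals but not after TMM scaling (log2 fold change -0.34 ± 0.58 (SE), edgeR adjusted p = 0.662). *CG43153* kept more of its level in NL than in ZI, with 20.9, 29.7 and 26.6 CPM in NL and 39.2, 13.7 and 24.8 CPM in ZI libraries in early larvae and 31.4, 20.95 and 6.32 CPM in NL and 2.28, 8.43 and 3.16 CPM in ZI libraries at the late stage (log2 fold change 1.84 ± 0.51 (SE), edgeR adjusted p = 0.0139). The libraries overlapped, and the call was lost without late NL replicate 1, without late ZI replicate 3 and with the late libraries alone (adjusted p of 0.0596, 0.0649 and 0.0895). *CG31743* was called higher in late NL libraries (log2 fold change 0.71 ± 0.20 (SE), edgeR adjusted p = 0.0137) except without late ZI replicate 3 (adjusted p of 0.0603) and with the late libraries alone (adjusted p of 0.0626). *SP1173* was called too (log2 fold change 0.70 ± 0.25 (SE), edgeR adjusted p = 0.0446), but under only 11 of 24 alternatives, and without late NL replicate 1 its adjusted p was 0.184. *CG2145* and *CG15293* were not called at any stage and were lower in prepupae by 10.2-fold in NL and 9.45-fold in ZI for *CG2145*, and by 17.9-fold in NL and 16.6-fold in ZI for *CG15293*.

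The 33 genes did not lie together in the genome. Of them, 6 lie on chromosome arm 2L, 1 on 2R, 8 on 3L, 11 on 3R and 7 on X. The single gene on 2R (*Lcp4*) is 3.03% of them, against 20.5% of the 2653 genes with at least 20 early CPM. None of the 32 genes with a position in the annotation lies within 20 kb of another of them. Among the 2653 genes, a far longer list, 2251 have such a neighbour. The listed transcript length had a median of 1585 bases (368 to 3661), against 2411 bases over the 2653 genes.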

How the data were processed

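Fat body RNA of 18 pooled libraries was sequenced by the authors as 150 bp paired reads after ribosomal depletion. The authors mapped read pairs with NextGenMap to the FlyBase 6.21 transcriptome, dropped ambiguous pairs, which hit several genes or transcripts, and deposited the counts per gene (16438 genes), not normalised. Whether strand was used is not given in the sources used here. Close copies and antisense or overlapping genes can therefore gain or lose counts.

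From the deposited counts, CPM were computed on column totals (14998610 to 37250385), and TPM from the listed transcript lengths. Populations were compared at each stage with edgeR 4.0.16 in R 4.3.3 (TMM factors, 1 factor of 6 groups over all 18 libraries, genes with on average 15 counts or more, quasi-likelihood F-test, Benjamini-Hochberg adjustment over 12460 genes, threshold 0.05). Fold changes are Dutch over Zambian, and the SE is the fold change over the square root of F. The interaction was the early-to-late change in NL minus that in ZI. DESeq2 1.42.0, other scalings, no filter, a replicate block, single stages and leaving out each library were the alternatives. Replicate numbers did not pair the libraries. The genes named are all members of the set, with neighbours in their routes, and the members and gene lists were chosen with earlier results of these data known. Names were matched by gene identifier for 16343 genes, by CG or CR number for 76 and by the table itself for 19. Coordinates are those of Ensembl release 115 on the Release 6 assembly. Promoter and protein sequences were not analysed here.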

Additional observations from a re-analysis of the deposited data

How the results depend on the processing

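The late count of genes called higher in NL (18) was 7 with the late libraries fitted alone and 10 to 23 when single libraries were left out (lowest without late ZI replicate 3, highest without late NL replicate 3). The early count higher in NL (3) was 15 with the early libraries alone and 2 to 12 without single libraries. The prepupal count higher in NL (2) was 13 with the prepupal libraries alone and 1 to 7 without single libraries, and the count higher in ZI (0) was 2 and 0 to 1. The interaction count (0) was 3 with upper-quartile factors, 1 with DESeq2 and 0 to 6 without single libraries. The number of genes under the rule (33) was 65 with TMM factors, 65 with DESeq2 size factors, 120 at a prepupal mean of at most 25% of the early mean, 8 at a limit of 1 in 16, 17 where every prepupal library had to pass against every early one, and 26 to 34 without single libraries. The median share of the log2 decline by the late stage was 31.4% to 48.5% in NL and 55.9% to 65.6% in ZI without single libraries. The cause of these shifts was not tested, and the share of all tested genes called in each of these fits is not given. Of 552 values of single called genes under alternatives, 510 kept their call, 42 lost it and 0 turned direction.

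With the replicate number as a block, 17 genes were called higher in NL at the late stage, 3 in early larvae and 2 in prepupae, and 0 had an interaction. The numbers did not pair the libraries: deviations of same-numbered libraries of the populations correlated between -0.39 and 0.43 over 9 pairs, and 1 pair was over 0.1.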
